A study of Homo sapiens with 5 samples.

Results

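Chemokines, interleukins and their receptors were examined in trastuzumab-resistant and trastuzumab-sensitive gastric cancer cells. A gene belonged to the set if its platform symbol began as a CXC, CC or CX3C chemokine, as a CXC or CC chemokine receptor, or as a numbered interleukin or interleukin receptor. LIF, its receptor LIFR, the shared receptor chain IL6ST and the lipocalin LCN2 were added by name. The rule took 138 genes with 217 probes, of 20044 genes and 47318 probes on the array. Of the 138 genes, 43 had a probe detected on at least 1 of the 5 arrays, at a detection p under 0.01 against negative controls, and were tested. The other 95 were above background on no array.

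Arrays of 4 resistant lines, named N87-TR1 to N87-TR4 (1 array each), were set against NCI-N87 (1 array), a human gastric carcinoma line with an amplified ERBB2 gene, the target of the antibody trastuzumab. All 5 lines were grown in the same serum-containing RPMI medium, and RNA came from subconfluent cultures. The labels do not say how the resistant lines were derived, whether they share a founder, or whether trastuzumab was present at harvest, and a p-value here reflects the spread among these arrays alone, which may be technical. Levels are on a log2 scale after background correction and quantile normalization of scanner signals, and each difference is the mean of the resistant lines minus NCI-N87. Differences were tested with limma, two-sided, over 12478 detected genes, at a Benjamini-Hochberg adjusted p under 0.05, with the lone NCI-N87 array assumed to vary like the resistant ones. An error after a level is the SD over the 4 resistant lines, and an error after a difference is its SE.

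Chemokines are small secreted proteins that bind G protein-coupled receptors and draw leukocytes along a gradient. Interleukins bind surface receptor chains, many of which signal through JAK kinases and STAT factors, while the IL1 and IL17 receptor families signal through adaptors to NF-kB. Epithelial and carcinoma cells are themselves sources of several of these ligands, NF-kB target genes among them, and can carry receptors for others.

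Between 22 and 29 genes of the set were detected in each resistant line, against 31 in NCI-N87. Over all genes, 10248 to 11069 were detected in the resistant lines, against 10381 in NCI-N87, and median probe signals were 138.8 to 158.2 in the resistant lines, against 133.8 in NCI-N87. N87-TR3 stood apart from the other resistant lines, with 119 genes past the test against the other 3. Of 7 epithelial markers, all 7 were detected in NCI-N87 but only 3 to 4 in each resistant line, and their summed background-corrected signal was 1110 to 3124 units in the resistant lines, against 88515 units in NCI-N87. Of these markers 6 were called lower in the resistant lines, and their part in the results below was not tested. Of 9 measured leukocyte markers, 2 were detected in each resistant line and 3 in NCI-N87, with a summed signal of 3827 to 6240 units in the resistant lines, against 4616 units in NCI-N87. The leukocyte genes PTPRC, CD3E, CD3D, MS4A1, LYZ and NKG7 were not detected on any array. CD14 and CD68 were detected on all 5 arrays, CD68 at 11.82 to 12.55 in the resistant lines, against 12.08 in NCI-N87. ITGAM was detected in NCI-N87 alone and was lower in the resistant lines (difference -1.82 ± 0.28). Of 7 fibroblast markers 0 to 1 were detected in a resistant line and 0 in NCI-N87, and of 5 endothelial markers none was detected on any array.

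In the resistant lines 11 genes of the set were lower than in NCI-N87 and 2 were higher, while 30 of the 43 did not pass the test. In bulk RNA, fewer cells of a type and less RNA per cell cannot be told apart. The lower genes were LCN2, the receptor chains IL20RA, IL18R1 and IL15RA, the chemokines CXCL5, CXCL16, CX3CL1 and CCL5, and the cytokines LIF, IL7 and IL1RN. The higher genes were the receptor LIFR and the interleukin subunit IL12A. Over all 12478 genes, 23.1% passed, 10.5% lower and 12.5% higher, whereas the 13 genes made up 30.2% of the set's tested members, 25.6% lower and 4.65% higher. The filter bears on these counts. Of the 11 lower genes 7 were detected in NCI-N87 alone, and both higher genes in resistant lines alone, so they entered the test through the group in which they were high. Of the 16 members detected on all 5 arrays, 2 were lower (CXCL16 and CCL5) and 0 higher, beside 6.90% lower and 9.11% higher among the 8679 genes so detected. The median difference over the 43 genes was -0.30, beside 0.07 over all tested genes. Without N87-TR3 the counts were 14 lower and 3 higher in the set, and they were also greater over all genes, at 1754 lower and 1960 higher of 12405. NCI-N87 lay outside the range of the resistant lines for 29 of the 43 genes, a share near the 68.6% found over all genes.

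**Figure D1:**
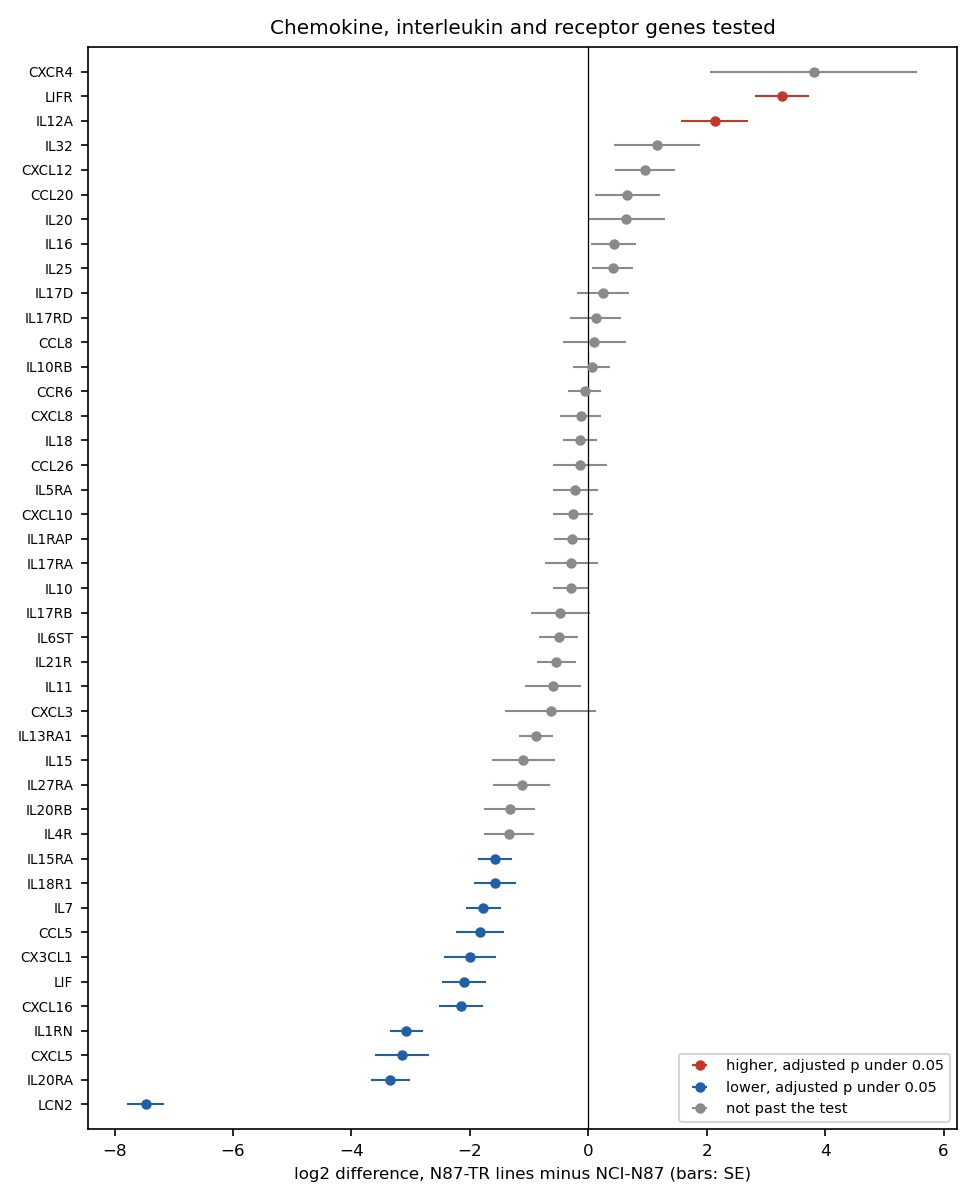
Log2 difference between the N87-TR lines and NCI-N87 for the 43 tested genes, 1 row per gene, with bars for the SE. LCN2 lies far left of all others at -7.47, and CXCR4 has the widest error at the right end.

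Among secreted proteins the greatest difference was that of LCN2, which encodes lipocalin 2, an iron-siderophore carrier released by epithelia and neutrophils. Its levels were 5.04, 5.46, 5.25 and 5.07 in N87-TR1 to N87-TR4, against 12.67 in NCI-N87. No resistant line was above background, while NCI-N87 gave a strong signal. LCN2 was at least 80.2-fold lower in the resistant lines (difference -7.47 ± 0.31, limma adjusted p = 4.11e-05). A fold given as "at least" sets the brighter group against the lowest detected signal of each dim array, or the probe's own signal where that was higher.

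Of 41 chemokine ligand genes 11 were tested, 4 fell, 0 rose and 7 did not pass, beside 10.5% lower and 12.5% higher over all genes. Of those that fell, CXCL5 and CX3CL1 entered the test through NCI-N87 alone. CXCL5 carries the ELR motif of the CXC chemokines that attract neutrophils through CXCR2. Its levels were 5.17, 5.12, 4.90 and 6.02 in N87-TR1 to N87-TR4, against 8.45 in NCI-N87. Detected in NCI-N87 alone, it was lower by at least 4.29-fold in the resistant lines (difference -3.15 ± 0.46, limma adjusted p = 0.00369). A second CXCL5 probe gave 4.80, 4.77, 4.72 and 4.95 in the resistant lines, against 8.89 in NCI-N87, so both probes separated the groups.

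None of the other ELR chemokines passed the test. CXCL8, also called interleukin 8, was detected on all 5 arrays, with levels of 7.02, 7.20, 7.45 and 7.62 in N87-TR1 to N87-TR4, against 7.45 in NCI-N87. NCI-N87 lay within the range of the resistant lines (difference -0.13 ± 0.34, limma adjusted p = 0.825), and the mean of its probes turned the sign, to 0.19. CXCL3 had levels of 4.82, 5.24, 6.03 and 6.996 in N87-TR1 to N87-TR4, against 6.41 in NCI-N87, and was detected in N87-TR4 alone (difference -0.64 ± 0.76, limma adjusted p = 0.600). CXCL1, CXCL2 and CXCL6 were not detected on any array, nor were CXCR1 and CXCR2, the receptors that bind these ligands.

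CXCL16 and CX3CL1 are made as membrane-anchored chemokines with a mucin stalk and can be shed by ADAM proteases. CXCL16 had levels of 9.23, 8.77, 8.89 and 9.52 in N87-TR1 to N87-TR4, against 11.25 in NCI-N87. It was detected in every line and was 4.45-fold lower in the resistant lines (difference -2.15 ± 0.38, limma adjusted p = 0.00777). The other CXCL16 probe was not detected on any array. CX3CL1 had levels of 5.54, 5.05, 6.09 and 5.21 in N87-TR1 to N87-TR4, against 7.47 in NCI-N87, where alone it was above background. It was at least 2.18-fold lower in the resistant lines (difference -1.998 ± 0.44, limma adjusted p = 0.0190). Their receptors CXCR6 and CX3CR1 were not detected on any array.

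CCL5, also known as RANTES, recruits T cells and monocytes. Its levels were 8.46, 8.03, 8.72 and 7.86 in N87-TR1 to N87-TR4, against 10.09 in NCI-N87. All lines were above background, and CCL5 was 3.55-fold lower in the resistant lines (difference -1.83 ± 0.40, limma adjusted p = 0.0193). Its second probe had a difference of -1.95 ± 0.50. CXCL10, an interferon-inducible chemokine, had levels of 6.02, 6.62, 6.27 and 6.14 in N87-TR1 to N87-TR4, against 6.51 in NCI-N87, and the groups overlapped (difference -0.25 ± 0.34, limma adjusted p = 0.644). CXCL12, the ligand of CXCR4, was detected in N87-TR4 alone, at 6.59 there, 6.06, 5.32 and 6.46 in N87-TR1 to N87-TR3, and 5.15 in NCI-N87 (difference 0.95 ± 0.51, limma adjusted p = 0.230).

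**Figure D2:**
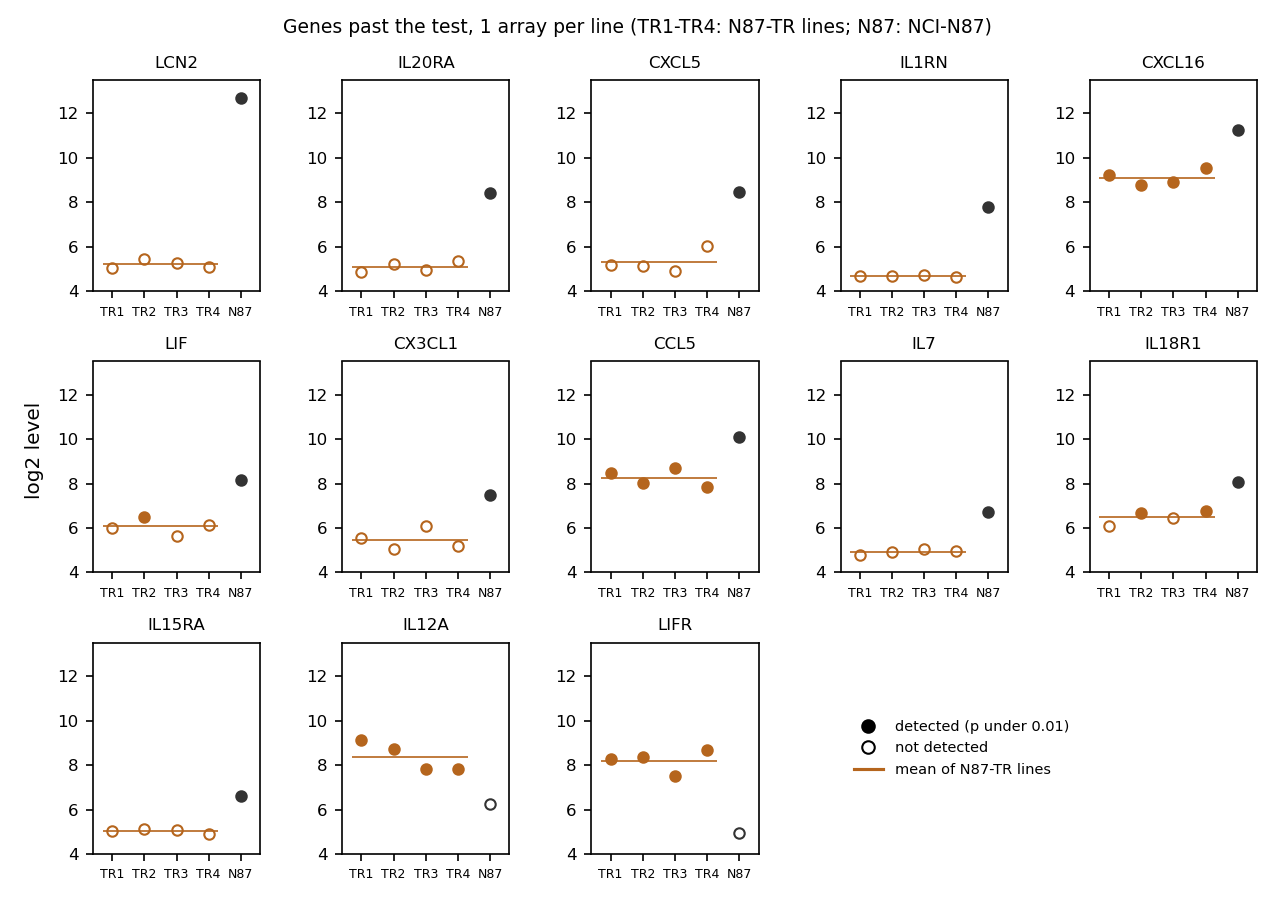
Log2 level of the 13 genes past the test on each array, with filled points where the probe was detected and open points where it was not, and a line at the mean of the N87-TR lines. LCN2, IL20RA, CXCL5, IL1RN, CX3CL1, IL7 and IL15RA are filled in NCI-N87 alone, whereas LIFR and IL12A are filled in the N87-TR lines alone.

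Ligand and receptor of the LIF pair differed in opposite directions. LIF is an IL6-family cytokine that signals through LIFR and IL6ST (gp130) to STAT3. LIF had levels of 6.01, 6.48, 5.66 and 6.13 in N87-TR1 to N87-TR4, against 8.16 in NCI-N87. Of the resistant lines only N87-TR2 was above background, so no fold is given (difference -2.09 ± 0.37, limma adjusted p = 0.00860). LIFR had levels of 8.26, 8.35, 7.51 and 8.69 in N87-TR1 to N87-TR4, against 4.93 in NCI-N87. It was detected in all 4 resistant lines and not in NCI-N87, which puts the resistant lines at least 3.43-fold above NCI-N87 (difference 3.27 ± 0.46, limma adjusted p = 0.00310). N87-TR3 had the lowest LIFR level of the resistant lines, without passing the test against the other 3 (difference -0.92 ± 0.30, limma adjusted p = 0.188). IL6ST had levels of 9.88, 10.11, 9.72 and 10.27 in N87-TR1 to N87-TR4, against 10.50 in NCI-N87 (difference -0.50 ± 0.33, limma adjusted p = 0.330). Of the other family members, IL11 had levels of 6.41, 5.23, 5.74 and 5.45 in N87-TR1 to N87-TR4, against 6.30 in NCI-N87, and was above background in N87-TR1 alone (difference -0.59 ± 0.47, limma adjusted p = 0.420). IL6 and IL6R were not detected on any array.

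In the IL1 family the antagonist fell and the abundant ligand did not pass. IL1RN encodes the IL1 receptor antagonist, which occupies the receptor without signalling. Its levels were 4.69, 4.68, 4.73 and 4.65 in N87-TR1 to N87-TR4, against 7.77 in NCI-N87. It was above background in NCI-N87 alone and at least 2.67-fold lower in the resistant lines (difference -3.08 ± 0.28, limma adjusted p = 0.000440). The other 2 IL1RN probes were not detected on any array, and without a detection filter the brighter of them was used and the call was lost (difference -0.51, limma adjusted p = 0.489). IL18R1, the ligand-binding chain of the IL18 receptor, had levels of 6.08, 6.66, 6.45 and 6.77 in N87-TR1 to N87-TR4, against 8.07 in NCI-N87. It was detected in 2 of the 4 resistant lines, so its 2.99-fold lower level there is uncertain (difference -1.58 ± 0.36, limma adjusted p = 0.0211).

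IL18 itself, a cytokine stored as a precursor in epithelial cells and cleaved by caspase-1, had levels of 15.64, 15.44, 15.48 and 15.53 in N87-TR1 to N87-TR4, against 15.66 in NCI-N87. The difference was -0.14 ± 0.28 (limma adjusted p = 0.775), and its sign turned under 75th percentile scaling, to 0.02. The IL18 scanner signal was 46695 to 51898 in the resistant lines, against 43844 in NCI-N87. The highest signals on those arrays were 63749 to 70781 and 62292, and saturation of the IL18 probe was not tested. IL1RAP, the shared signalling chain, had levels of 6.83, 6.59, 6.44 and 6.54 in N87-TR1 to N87-TR4, against 6.87 in NCI-N87 (difference -0.27 ± 0.31, limma adjusted p = 0.574). The agonists IL1A, IL1B and IL33 and the receptor IL1R1 were not detected on any array.

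Of 42 genes classed by symbol as cytokine receptors 16 were tested, 1 rose, 3 fell and 12 did not pass, beside 12.5% higher and 10.5% lower over all genes. The class includes IL36RN, a receptor antagonist, which was not detected on any array. LIFR, which rose, entered the test through resistant lines alone, and IL20RA and IL15RA, which fell, through NCI-N87 alone. IL20RA forms, with IL20RB, an epithelial receptor for IL19, IL20 and IL24. Its levels were 4.86, 5.20, 4.92 and 5.36 in N87-TR1 to N87-TR4, against 8.43 in NCI-N87, where alone it was detected. It was at least 4.24-fold lower in the resistant lines (difference -3.35 ± 0.33, limma adjusted p = 0.000639). IL20RB had levels of 5.94, 5.77, 6.79 and 6.16 in N87-TR1 to N87-TR4, against 7.49 in NCI-N87 (difference -1.32 ± 0.43, limma adjusted p = 0.0709). It passed with N87-TR3 left out, where calls also rose over all genes, and in none of 14 other repeats. The ligand IL20 was above background in N87-TR1 and N87-TR3, and IL19 and IL24 on no array.

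IL7 and IL15 signal through receptors that share the common gamma chain, IL2RG. IL7 had levels of 4.81, 4.91, 5.07 and 4.95 in N87-TR1 to N87-TR4, against 6.71 in NCI-N87. It was at least 1.28-fold lower in the resistant lines, as its NCI-N87 signal was near the detection limit (difference -1.77 ± 0.29, limma adjusted p = 0.00590), and its other probe was not detected on any array. IL15RA, the chain that presents IL15, had levels of 5.02, 5.12, 5.06 and 4.90 in N87-TR1 to N87-TR4, against 6.60 in NCI-N87. It was at least 1.19-fold lower in the resistant lines (difference -1.57 ± 0.29, limma adjusted p = 0.00936). Both were detected in NCI-N87 with a detection p of 0.00649, close to the limit, and without a detection filter another IL15RA probe was used and the call was lost (difference -0.14, limma adjusted p = 0.795). IL15 was also detected in NCI-N87 alone, at 6.31, 6.11, 4.97 and 5.46 in N87-TR1 to N87-TR4, against 6.81 in NCI-N87 (difference -1.10 ± 0.53, limma adjusted p = 0.191). IL2RG, IL2RB and IL7R were not detected on any array.

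IL4R and IL13RA1 form a receptor for IL4 and IL13 on non-haematopoietic cells. IL4R had levels of 7.19, 6.86, 7.80 and 6.91 in N87-TR1 to N87-TR4, against 8.52 in NCI-N87 (difference -1.33 ± 0.42, limma adjusted p = 0.0650). It passed under cyclic loess normalization and with N87-TR3 left out, and in none of 14 other repeats. IL13RA1 had levels of 11.08, 11.21, 10.92 and 11.05 in N87-TR1 to N87-TR4, against 11.95 in NCI-N87 (difference -0.89 ± 0.29, limma adjusted p = 0.0726). It passed in 6 repeats under other processing, the authors' values among them, and not in 10 others. In both genes NCI-N87 lay above all 4 resistant lines, and it lay outside their range for 68.6% of all tested genes. IL27RA had levels of 6.28, 6.995, 7.42 and 6.40 in N87-TR1 to N87-TR4, against 7.90 in NCI-N87 (difference -1.13 ± 0.48, limma adjusted p = 0.147). It passed with N87-TR3 left out, and in none of 14 other repeats.

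The only interleukin gene past the test in the upward direction was IL12A, which encodes the p35 chain of IL12 and IL35. Its levels were 9.13, 8.74, 7.81 and 7.82 in N87-TR1 to N87-TR4, against 6.24 in NCI-N87. All 4 resistant lines were above background and NCI-N87 was not, which puts the resistant lines at least 3.86-fold above NCI-N87 (difference 2.14 ± 0.57, limma adjusted p = 0.0368). The call was lost without N87-TR1 (limma adjusted p = 0.0525), without N87-TR2 (0.0723), without background correction (0.0552) and without a detection filter (0.0685). IL12B, the partner chain in IL12, was not detected on any array. IL32 was above background in N87-TR1 and N87-TR2 alone, at 6.64, 7.26, 5.71 and 5.24 in N87-TR1 to N87-TR4, against 5.05 in NCI-N87 (difference 1.16 ± 0.73, limma adjusted p = 0.304).

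Of 14 chemokine receptor genes 2 were tested and neither passed by the probe used. CXCR4, the receptor of CXCL12, is a guide of cell homing and is found on many carcinoma cells. Its brightest probe gave 10.31, 9.83, 5.21 and 9.25 in N87-TR1 to N87-TR4, against 4.84 in NCI-N87. N87-TR1, N87-TR2 and N87-TR4 were well above background, while N87-TR3 and NCI-N87 were not. With N87-TR3 among the resistant lines the difference was 3.81 ± 1.75 (limma adjusted p = 0.171), and without it 4.99 (limma adjusted p = 0.000566). A second CXCR4 probe gave 8.59, 8.16, 7.16 and 7.90 in N87-TR1 to N87-TR4, against 4.72 in NCI-N87. By that probe all 4 resistant lines were above background, and it passed when every detected probe was fitted on its own (difference 3.23 ± 0.53, limma adjusted p over probes = 0.00789). The third CXCR4 probe was not detected on any array, so the probes disagreed on N87-TR3.

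**Figure D3:**
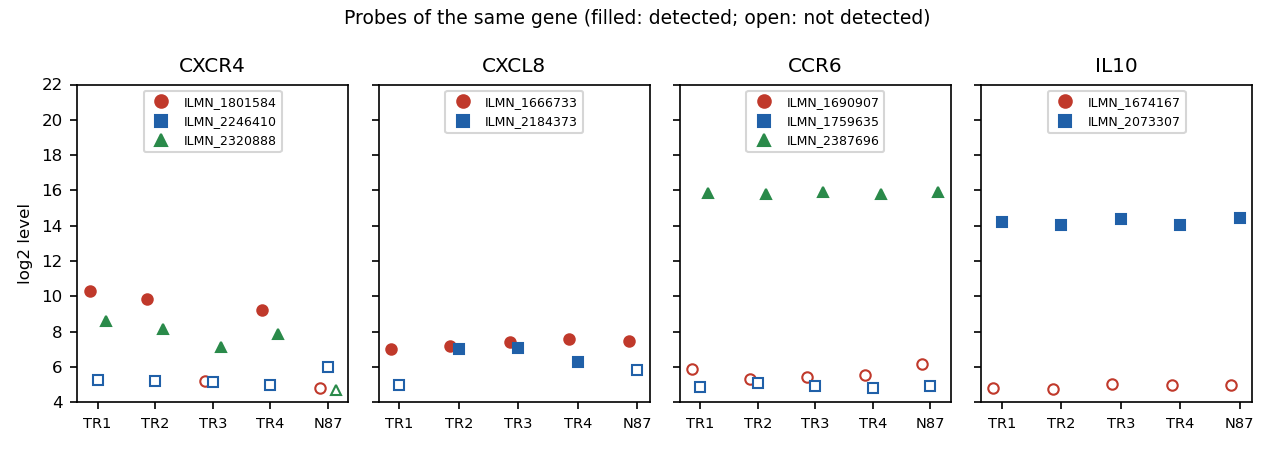
Log2 level of each probe of CXCR4, CXCL8, CCR6 and IL10 on each array, filled where detected. One CXCR4 probe falls to background in N87-TR3 while another stays detected there, and only 1 probe each of CCR6 and IL10 is detected.

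CCR6, the receptor of CCL20, had levels of 15.85, 15.81, 15.90 and 15.80 in N87-TR1 to N87-TR4, against 15.90 in NCI-N87 (difference -0.06 ± 0.28, limma adjusted p = 0.910). Its scanner signal was 57611 to 62435 in the resistant lines, against 56309 in NCI-N87, near the highest signals on those arrays, so saturation is possible. The other 2 CCR6 probes were not detected on any array. IL10 had levels of 14.22, 14.02, 14.39 and 14.05 in N87-TR1 to N87-TR4, against 14.47 in NCI-N87, and its other probe was not detected on any array either. For both genes the level therefore rests on 1 probe that the gene's other probes did not share.

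Regulatory sequence is shown for genes on which these comparisons turn, because LCN2 and CXCL5 are known NF-kB targets and fell, while LIFR and IL12A rose. CXCR4 is shown because its brightest probe differed among the resistant lines, although the mean of its detected probes did not pass. RefSeq promoter windows (GRCh38.p14) were found for 8 of the 13 genes past the test and for 34 of the 43 tested. For genes with several listed starts the most upstream was used. Each line below holds the 250 bases before the start, read 5′ to 3′ on the gene's strand, and capitals mark matches to the motifs searched.
LCN2: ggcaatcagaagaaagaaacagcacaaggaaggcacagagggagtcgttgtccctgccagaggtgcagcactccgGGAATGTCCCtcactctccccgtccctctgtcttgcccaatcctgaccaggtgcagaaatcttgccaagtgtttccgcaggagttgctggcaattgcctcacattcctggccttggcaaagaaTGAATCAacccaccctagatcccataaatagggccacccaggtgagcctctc
CXCL5: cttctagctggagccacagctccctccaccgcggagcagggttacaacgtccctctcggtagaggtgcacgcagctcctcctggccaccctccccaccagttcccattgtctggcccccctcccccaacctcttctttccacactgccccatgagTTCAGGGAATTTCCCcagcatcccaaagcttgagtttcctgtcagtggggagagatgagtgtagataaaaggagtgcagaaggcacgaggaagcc
IL20RA: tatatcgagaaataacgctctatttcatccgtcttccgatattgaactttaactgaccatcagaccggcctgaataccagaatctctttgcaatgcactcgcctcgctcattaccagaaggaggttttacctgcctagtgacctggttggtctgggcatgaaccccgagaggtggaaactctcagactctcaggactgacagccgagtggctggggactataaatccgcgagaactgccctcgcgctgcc
LIFR: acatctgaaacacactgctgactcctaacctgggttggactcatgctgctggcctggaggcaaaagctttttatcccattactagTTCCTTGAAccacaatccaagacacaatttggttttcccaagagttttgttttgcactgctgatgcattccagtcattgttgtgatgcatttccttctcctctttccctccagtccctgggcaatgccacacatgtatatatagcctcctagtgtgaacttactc
IL12A: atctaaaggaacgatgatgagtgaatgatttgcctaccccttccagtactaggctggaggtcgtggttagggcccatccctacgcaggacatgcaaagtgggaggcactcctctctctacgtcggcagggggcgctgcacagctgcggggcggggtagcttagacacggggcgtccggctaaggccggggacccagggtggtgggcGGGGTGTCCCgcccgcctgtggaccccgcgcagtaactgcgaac
CXCR4: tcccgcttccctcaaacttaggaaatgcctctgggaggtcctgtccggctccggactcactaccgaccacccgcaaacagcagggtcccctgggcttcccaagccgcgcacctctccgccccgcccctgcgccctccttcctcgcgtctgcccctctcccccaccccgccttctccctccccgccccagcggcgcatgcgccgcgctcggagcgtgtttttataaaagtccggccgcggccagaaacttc
The windows are chr9:128149203-128149452 (plus strand), chr4:73998678-73998927 (minus strand), chr6:137044966-137045215 (minus strand), chr5:38595406-38595655 (minus strand), chr3:159988585-159988834 (plus strand) and chr2:136118150-136118399 (minus strand), in the order printed. Both strands were searched for the NF-kB consensus, for TGANTCA, a looser form of the AP-1 motif, and for the STAT motif TTCNNNGAA. An NF-kB match was found in LCN2, beginning 175 bases before the start, in CXCL5 at 91 bases and in IL12A at 44 bases. The CXCL5 match was found on both strands, shifted by 1 base, and overlapped a TTCNNNGAA match that begins 95 bases before the start. LCN2 also held TGAATCA at 52 bases, and LIFR held TTCCTTGAA at 165 bases. None of the 3 motifs was found in the IL20RA and CXCR4 windows. Over all 35116 windows of this length 9.96% held the NF-kB consensus, 6.57% TGANTCA and 6.57% TTCNNNGAA. Of the windows shown, those of LCN2 and CXCL5, which fell, and of IL12A, which rose, held an NF-kB match. The genes were picked with their results known, and LCN2 and CXCL5 also as known NF-kB targets. Their matches are therefore no test against these shares. Other genes past the test with a window are not shown, and a part of NF-kB in the differences was not tested.

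Each resistant line was also set against NCI-N87 alone, with 1 array on each side and no test. These comparisons share the NCI-N87 array. Of the 43 genes, N87-TR1 had 4 at least 2-fold higher and 15 lower, beside 19.2% and 17.1% of all tested genes. N87-TR2 had 6 higher and 16 lower, beside 18.7% and 16.5%. N87-TR3 had 4 higher and 13 lower, beside 22.2% and 17.6%. N87-TR4 had 4 higher and 15 lower, beside 18.4% and 16.3%. Of the 43 genes, 8 entered the test through NCI-N87 alone and 12 through resistant lines alone, which bears on the counts of lower and of higher genes.

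Set against the other 3 resistant lines, N87-TR3 was the only line with a gene of the set past the test. CXCR4 by its brightest probe was lower there, at 5.21 against a mean of 9.79 in the other resistant lines (difference -4.58 ± 0.43, limma adjusted p = 0.0268), but the mean of its 2 detected probes did not pass. The share of all genes past this test was 0.954% for N87-TR3. For N87-TR1 the share was 0.00%, with 514 genes at an unadjusted p under 0.05 by limma. For N87-TR2 it was 0.00%, with 325 such genes, and for N87-TR4 0.00%, with 176. In N87-TR3 7 of the 43 genes had an unadjusted p under 0.05, beside 18.9% of all genes.

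N87-TR2 alone had 3 CC chemokines above background. CCL20, which attracts CCR6-bearing cells, had levels of 5.32, 6.71, 5.62 and 5.38 in N87-TR1 to N87-TR4, against 5.10 in NCI-N87. CCL8, a monocyte attractant, had 5.27, 6.46, 5.33 and 5.17 in N87-TR1 to N87-TR4, against 5.45 in NCI-N87. CCL26, an eosinophil attractant, had 5.54, 6.495, 5.65 and 5.41 in N87-TR1 to N87-TR4, against 5.92 in NCI-N87. N87-TR2 was the highest line for each, above the other resistant lines by 1.27 ± 0.36 for CCL20, 1.21 ± 0.34 for CCL8 and 0.96 ± 0.35 for CCL26, and none passed (limma adjusted p = 0.9998 for each). All 3 signals lay close to the detection limit. In N87-TR4 CXCL3 was higher than in the other resistant lines by 1.63 ± 0.53 and IL20 lower by a difference of -1.35 ± 0.48 (limma adjusted p = 0.999 for both).

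**Figure D4:**
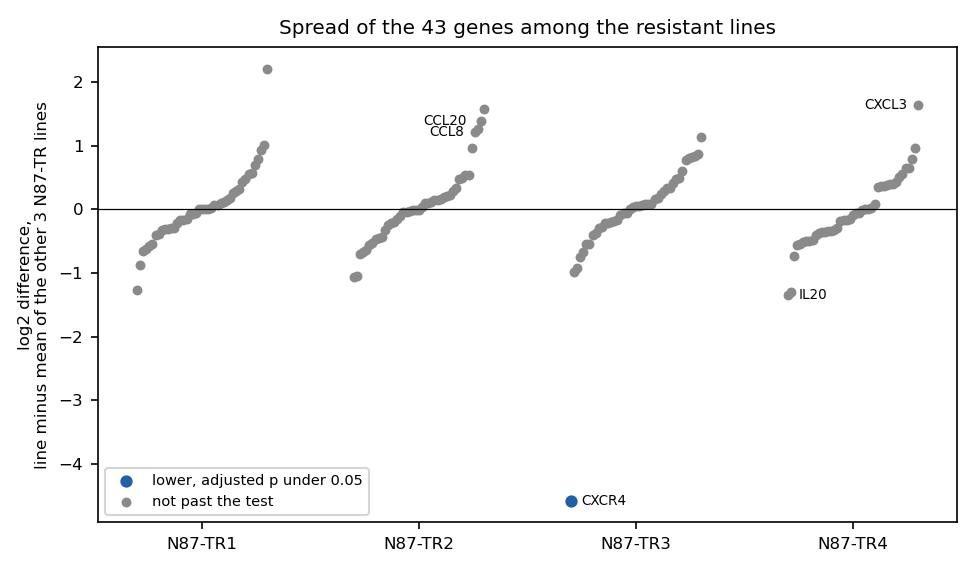
Log2 difference of each N87-TR line from the mean of the other 3 for the 43 tested genes, sorted within a line. CXCR4 in N87-TR3, at -4.58, is the 1 point past the test, and the other named points did not pass.

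Genes that act with these ligands and receptors were read from the same fit. Of 16 tested genes of IL1 receptor and Toll-like receptor signalling 5 fell, 1 rose and 10 did not pass, beside 10.5% lower and 12.5% higher over all genes. The list holds receptors, adaptors and kinases, and the protease CASP1. The adaptors MYD88 and TRAF6 were among the genes that did not pass. The median difference of the list was -0.94, beside 0.07 over all genes. PYCARD, the inflammasome adaptor ASC, had levels of 5.26, 5.27, 5.35 and 5.31 in N87-TR1 to N87-TR4, against 10.48 in NCI-N87. It was at least 17.5-fold lower in the resistant lines (difference -5.18 ± 0.28, limma adjusted p = 6.39e-05). IRAK3, a brake on IL1 receptor signalling, was at least 6.82-fold lower (difference -3.78 ± 0.30, limma adjusted p = 0.000236). CASP1, the protease that matures IL1B and IL18, was at least 2.14-fold lower (difference -2.62 ± 0.29, limma adjusted p = 0.00109). The flagellin receptor TLR5 also fell (difference -2.46 ± 0.47, limma adjusted p = 0.0117), with 1 of the 4 resistant lines above background. The other gene that fell, SIGIRR (difference -1.32 ± 0.36, limma adjusted p = 0.0412), and the one that rose, IRAK2, were chosen after their values were seen. The kinase IRAK2 was at least 3.46-fold higher (difference 1.89 ± 0.40, limma adjusted p = 0.0157). PYCARD, IRAK3 and CASP1 were detected in NCI-N87 alone, through which they entered the test, whereas IL18, the CASP1 substrate, was detected in every line. IRAK2 was detected in the resistant lines alone and entered through those.

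Of 18 tested NF-kB subunits and feedback genes 5 fell, 0 rose and 13 did not pass, beside 10.5% lower and 12.5% higher over all genes, with a median difference of -0.21. NFKB1, which encodes the p105 precursor of p50, had levels of 9.92, 11.09, 11.08 and 10.92 in N87-TR1 to N87-TR4, against 12.77 in NCI-N87. It was 4.05-fold lower in the resistant lines (difference -2.02 ± 0.50, limma adjusted p = 0.0291). RELB was at least 2.61-fold lower (difference -1.99 ± 0.41, limma adjusted p = 0.0155), the kinase IKBKE at least 1.68-fold lower (difference -1.73 ± 0.32, limma adjusted p = 0.0105) and the co-regulator BCL3 3.15-fold lower (difference -1.65 ± 0.30, limma adjusted p = 0.00910). RELA, chosen after its values were seen, was the other gene that fell (difference -1.08 ± 0.30, limma adjusted p = 0.0429). RELB and IKBKE were detected in NCI-N87 alone, through which they entered the test. The feedback inhibitors NFKBIA and TNFAIP3 did not pass, with differences of 0.36 ± 0.37 and 0.30 ± 0.37.

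Of 16 tested JAK, STAT and SOCS genes 3 fell, 2 rose and 11 did not pass, beside 10.5% lower and 12.5% higher over all genes. The median difference of the list was -0.28. STAT6, the factor used by IL4 and IL13, had levels of 7.48, 7.79, 7.63 and 7.995 in N87-TR1 to N87-TR4, against 10.16 in NCI-N87. It was 5.42-fold lower in the resistant lines (difference -2.44 ± 0.32, limma adjusted p = 0.00240). The phosphatase PTPN6 was also lower (difference -2.53 ± 0.47, limma adjusted p = 0.00999), with only 1 resistant line above background. STAT5B was at least 3.61-fold higher (difference 1.97 ± 0.35, limma adjusted p = 0.00808) and STAT5A at least 2.27-fold lower (difference -1.52 ± 0.35, limma adjusted p = 0.0220). These are close paralogs, and their probes differed in opposite directions. STAT4, chosen after its values were seen, was the other gene that rose (difference 1.20 ± 0.34, limma adjusted p = 0.0464). STAT5A entered the test through NCI-N87 alone, and STAT5B and STAT4 through resistant lines alone. STAT3, which carries the signal of LIFR and IL6ST, had a difference of -0.45 ± 0.37 and did not pass.

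Of 9 tested cytokine genes outside the symbol rule 2 rose, 1 fell and 6 did not pass, beside 12.5% higher and 10.5% lower over all genes, with a median difference of -0.03. CNTFR, the CNTF-binding chain of a receptor that also uses LIFR and IL6ST, had levels of 7.84, 7.83, 6.91 and 7.47 in N87-TR1 to N87-TR4, against 4.74 in NCI-N87. It was detected in the resistant lines alone, through which it entered the test. The resistant lines were at least 2.12-fold above NCI-N87 (difference 2.77 ± 0.43, limma adjusted p = 0.00471). OSMR, the oncostatin M receptor chain that also pairs with IL6ST, had levels of 6.03, 6.16, 5.07 and 6.22 in N87-TR1 to N87-TR4, against 7.59 in NCI-N87 (difference -1.72 ± 0.49, limma adjusted p = 0.0451), with 1 of the 4 resistant lines above background. SLC22A17, reported as a receptor of lipocalin 2, was 3.49-fold higher (difference 1.80 ± 0.35, limma adjusted p = 0.0121).

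**Figure D5:**
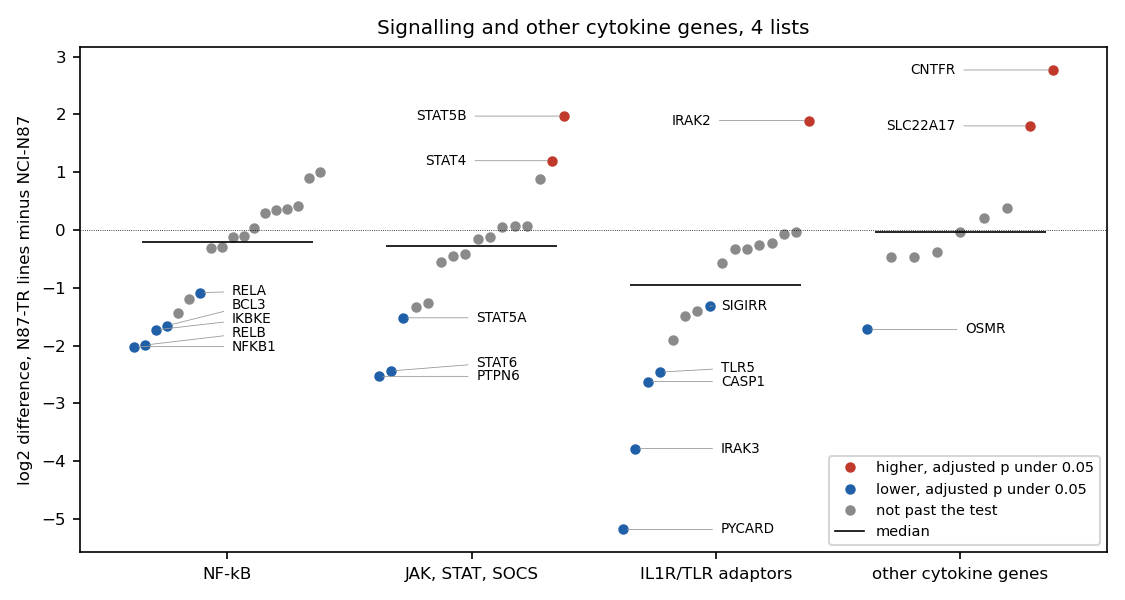
Log2 difference between the N87-TR lines and NCI-N87 for the tested genes of 4 lists, sorted within a list, with a line at the median. PYCARD at -5.18 and CNTFR at 2.77 mark the ends of the range, and genes past the test are named. The list marked IL1R/TLR adaptors also holds receptors, kinases and the protease CASP1.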

How the data were processed

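RNA of 5 cell lines was hybridised to Illumina BeadChips, 1 array per line. The authors deposited a table of scanner signal intensity per probe, linear and not normalized, with a detection p-value beside each intensity, per the file headers. Per the submitters' processing notes GenomeStudio was used, its version not given in the sources used here. The authors' processed intensity table, of a method not given in the sources used here, served as an alternative.

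Of 47318 probes 30111 carried a single gene symbol, 8 carried more than 1, and the other 17199 have no name here. For 30072 probes the symbol was updated by gene ID through RefSeq (GRCh38.p14). Signals were processed with neqc of limma 3.58.1 in R 4.3.3 (offset 16, background estimated by way of the detection p-values). Testing needed a probe detected on any array (detection p under 0.01), and the brightest such probe stood for its gene. lmFit and eBayes gave differences and Benjamini-Hochberg adjusted p-values over 12478 genes. The comparison of resistant lines with NCI-N87 had 3 residual and 3.83 prior degrees of freedom. Each resistant line against the other 3 was fitted separately, with NCI-N87 as a group of its own, which left fewer residual degrees of freedom. The lone array in each comparison is assumed to vary like the rest. The fit was tested on simulated data. Intensities on 5 arrays limit the precision.

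The members and lists were chosen with earlier results of these data known. Every member past the test was named, with values on every array, as for detected members of the IL1, IL6 and ELR CXC families, and up to 4 genes past the test per list. Other members were given where they share a receptor or ligand with these, chosen after their values were seen. All arrays share 1 slide per the labels, so no batch term was needed. Alternatives were background correction, offset, normalization, the authors' values, the detection filter, probe choice, threshold, variance model and leaving out each resistant line.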

Additional observations from a re-analysis of the deposited data

Results flagged for a closer look

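CCL8 was picked out because 1 resistant line was separated from the other 3 by most of their range. The gap between N87-TR2, at 6.46, and the next line was 0.874 of the range of the 4 resistant lines. The CCL8 level in NCI-N87 was 5.45. CXCR4 in N87-TR3 lay further off in log2 units, but its gap was a smaller share of its wider range, at 0.792. About 1 in 20 groups is picked out in this way by chance, and 43 genes were examined.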

How the results depend on the processing

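Of 351 repeats for the named genes under the alternatives, 328 kept their direction and their side of the threshold, 10 lost their call, 11 gained one and 2 turned sign. The sign turned for IL18 under 75th percentile scaling (0.0197) and for CXCL8 with the mean of detected probes (0.19), neither past the test. With detection on all 5 arrays, which tests fewer genes, 831 genes were higher and 631 lower over all genes, 0 and 2 in the set, 1 and 2 in the 4 pathway lists, and 0 in the set between resistant lines. At an adjusted p under 0.01 the counts were 689 and 690 over all genes, 1 higher in the set, 2 and 6 in the lists, and 0 between resistant lines. The set had 1 higher gene without background correction and 1 without a detection filter. Between resistant lines it had 0 without a detection filter and 0 with the mean of detected probes. Leaving out each resistant line gave 1 to 3 higher and 11 to 14 lower genes in the set, with 3 and 14 without N87-TR3 and 1 higher without N87-TR1 or N87-TR2, and 1122 to 1960 higher and 1019 to 1754 lower over all genes. The lists then had 4 to 6 higher and 10 to 16 lower genes. IL13RA1 passed under 6 alternatives, with adjusted p-values of 0.0305 (intensity trend) to 0.0486 (offset of 50), and IL4R under cyclic loess (0.0444). No scaling moved the median of all genes beyond -0.04 to 0.09, and the share of calls that were higher, over the normalizations, ran from 48.0% under cyclic loess to 54.3% as reported. No paired analysis was possible because NCI-N87 is a single array, so no 2 replicate numbers are shared. Signals near background limit the folds of IL7, IL15RA, CX3CL1 and IL1RN, and 1 sensitive array leaves its own spread unmeasured.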

Other observations

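Of the members detected on all 5 arrays, CCR6, CXCL16, IL10, IL17D, IL17RD, IL25, IL5RA and IL6ST each had at least 1 other probe that was above background on no array. IL17RD, an inhibitor of FGF signalling, had levels of 12.99, 12.55, 13.49 and 12.60 in N87-TR1 to N87-TR4, against 12.78 in NCI-N87. IL25 had 8.63, 8.92, 9.23 and 8.64 in N87-TR1 to N87-TR4, against 8.44 in NCI-N87, and IL17D had 7.39, 8.07, 8.35 and 8.37 in N87-TR1 to N87-TR4, against 7.79 in NCI-N87. IL10RB, a chain of the IL10 and IL22 receptors, was detected by both its probes in every line, with differences of 0.06 ± 0.31 by the probe used and -0.40 ± 0.33 by the other. The IL17 receptor chains IL17RA and IL17RB were detected in every line, with differences of -0.29 ± 0.44 and -0.47 ± 0.50, and did not pass.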
